A study of Homo sapiens with 5 samples.

Results

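ERF is an ETS-domain repressor and the gene targeted in this series, and 9 further ETS-domain factors (ETV3, ETV5, ETV6, ELK1, ELK3, ELK4, ETS2, GABPA and ELF1) were described with it. The 10 genes were picked by name for their DNA-binding domain, with earlier results of these data known, and all 10 were among the 11976 genes of the authors' deposited table. The cells were HUDEP-2, an established erythroid progenitor line made from umbilical cord blood, which makes mostly adult hemoglobin. One group held 3 libraries of the genotype ERF knockout and the other 2 libraries of the genotype wild type, whose titles carry the letters SCR, not explained in the labels. No drug, dose or time is given for either group, and what Pre in the table's name stands for is not known. The labels do not say where the edit lies, whether the knockout libraries came from 1 clone or several, or whether each library is a separate culture, so the p-values rest on the spread within these groups, which may be partly or wholly technical.

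ETS factors share a winged helix-turn-helix domain that binds DNA around the bases GGAA, and they differ in whether they activate or repress and in the partners they need. ERF represses from such sites. Active ERK phosphorylates it and it then leaves the nucleus, so that its repression is relieved by growth factor signalling. In blood cells, ETS factors take part in lineage choice alongside GATA and RUNX factors.

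For each gene the authors' deposited table lists the log2 fold change, the log2 CPM averaged across libraries and the F, p and Benjamini-Hochberg adjusted p of the test, and it has 0 columns of values per library. Levels in each library, their spread and their depth are therefore unknown, and no likeness of other genes to ERF across samples could be computed. The header does not say which group is the reference. Every difference below is thus printed as positive where a gene lies on the same side as ERF, that is, higher in the group in which ERF RNA is higher, which reverses the sign of the authors' deposited table. This sign is a convention and not a result. Standard errors (SE) and 95% intervals were worked out here from the deposited fold changes and F values, using 10.3 degrees of freedom, the number at which F gives the deposited p. That is more than 5 libraries alone can supply for a single gene. Part of the spread behind each p-value and interval was thus drawn from other genes. A gene is called where its deposited adjusted p (edgeR) is below 0.05. By that rule 6092 of 11976 genes (50.9%) were called in the authors' deposited table, 2987 (24.9%) on the side of ERF and 3105 (25.9%) on the opposite side. A call is therefore common in this comparison.

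The erythroid identity of the cells was checked on a list of markers. All 12 erythroid markers were measured, with mean levels from 6.90 (SLC4A1) to 12.48 log2 CPM (HBB) in the authors' deposited table. Of 11 markers of other lineages 4 were measured: ITGA2B at 7.26, PTPRC at 5.95, ALB at 0.88 and LYZ at 0.48 (log2 CPM, from the authors' deposited table). The other 7 were not analysed here. Of the 12 erythroid markers, 7 (58.3%) were called on the side of ERF, where the share over all genes was 24.9%, and KIT (-0.41), a receptor of early progenitors, was called on the opposite side, where it was 25.9%. The markers had a median log2 difference of 0.20 against a median of -0.00186 over all genes in the authors' deposited table. Among the 4 markers of other lineages, ALB alone was called, at 1.02 on the side of ERF in the authors' deposited table. The part of these shifts in the results on ETS factors was not tested, and in bulk RNA fewer cells of a type and less RNA per cell cannot be told apart.

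The promoters of the factors were searched for a match to the site that ETS factors bind. RefSeq windows (GRCh38.p14) from 250 bases before to 50 bases after the start farthest upstream were found for 9 of the 10 genes. They were searched on both strands for CGGAAGT, an ETS core with its usual flanks, whose reverse complement is ACTTCCG; no other motif was searched, so none overlaps it. It occurred in 3 of the 9, ETV3, ELK4 and GABPA, and in 7.23% of the 27305 windows in the RefSeq table. The 150 bases before the start are shown for the 5 factors that were called, because these carry the results, in lower case with the motif in capitals.
ERF, chr19:42255129-42255278, minus strand: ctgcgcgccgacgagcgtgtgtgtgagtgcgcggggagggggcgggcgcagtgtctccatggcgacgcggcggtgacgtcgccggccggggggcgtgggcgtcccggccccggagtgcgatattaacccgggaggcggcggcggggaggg
ELK3, chr12:96194225-96194374, plus strand: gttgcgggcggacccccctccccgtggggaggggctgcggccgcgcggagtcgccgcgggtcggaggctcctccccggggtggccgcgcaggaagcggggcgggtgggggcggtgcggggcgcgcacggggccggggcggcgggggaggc
ELK1, chrX:47650605-47650754, minus strand: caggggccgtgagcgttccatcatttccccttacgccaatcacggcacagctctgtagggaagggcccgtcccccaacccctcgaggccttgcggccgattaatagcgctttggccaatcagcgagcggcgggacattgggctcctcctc
ETS2, chr21:38805033-38805182, plus strand: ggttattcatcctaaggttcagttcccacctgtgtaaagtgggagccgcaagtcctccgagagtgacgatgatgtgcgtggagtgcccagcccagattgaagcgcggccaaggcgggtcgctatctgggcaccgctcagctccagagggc
ETV3, chr1:157138396-157138545, minus strand: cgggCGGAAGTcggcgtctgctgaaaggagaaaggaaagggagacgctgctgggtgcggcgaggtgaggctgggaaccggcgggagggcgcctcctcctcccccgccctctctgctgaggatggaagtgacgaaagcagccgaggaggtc

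Among the called factors, ETV3 had 1 match in its window, and ERF, ELK3, ELK1 and ETS2 had none. Whether a match goes with a call or with its side was not tested. In ETV3 the match starts 146 bases before the transcription start and reads on the gene's strand. The match of ELK4, which was not called, starts 21 bases before its start on the gene's strand. That of GABPA, also not called, starts 67 bases before its start on the reverse strand. These are matches of letters and not bound sites. A window without a match can still hold the shorter GGAA, which was not counted over the windows. The stretches printed above for ELK3, ELK1 and ETS2 hold GGAA on 1 strand or the other. The 150 bases printed for ERF do not, but they are only part of its window. Without a background share for GGAA, nothing is concluded from this. GC content of the windows ran from 58% in ETS2 to 83.7% in ELK3, with 77% in ERF. A comparison of all tested genes with and without the motif was planned, but only 77.4% of tested genes had a window, under the 80% set as the minimum, so that comparison is void and no value is given.

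Levels of the factors covered a wide range. Per kilobase of annotated exon (GENCODE 29), and averaged over all 5 libraries, ELF1, a broadly expressed activator in blood cells, was highest at 5.52 log2 CPM per kb. ERF came next at 4.16 log2 CPM per kb. ELK1 followed at 3.97, GABPA at 3.76 and ETS2 at 3.66 log2 CPM per kb. Below these stood ELK4 at 2.92, ETV3 at 2.22 and ELK3 at 1.72 log2 CPM per kb. The lowest were ETV5 at 0.52 and ETV6 at -0.56 log2 CPM per kb. These levels combine the mean log2 CPM of the authors' deposited table with exon lengths from an annotation that may differ from the authors' own, and without values per library it cannot be said which neighbours in this order differ. Per kb, ERF was thus among the most abundant of the measured ETS factors, while its subfamily relative ETV3 was lower. Without division by exon length, ERF (5.88 log2 CPM) stood below ELF1 (7.63), ELK4 (6.52) and GABPA (6.20). It was then close to ETS2 (5.86) and ELK1 (5.73) and still above ETV3 (4.97).

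**Figure D1:**
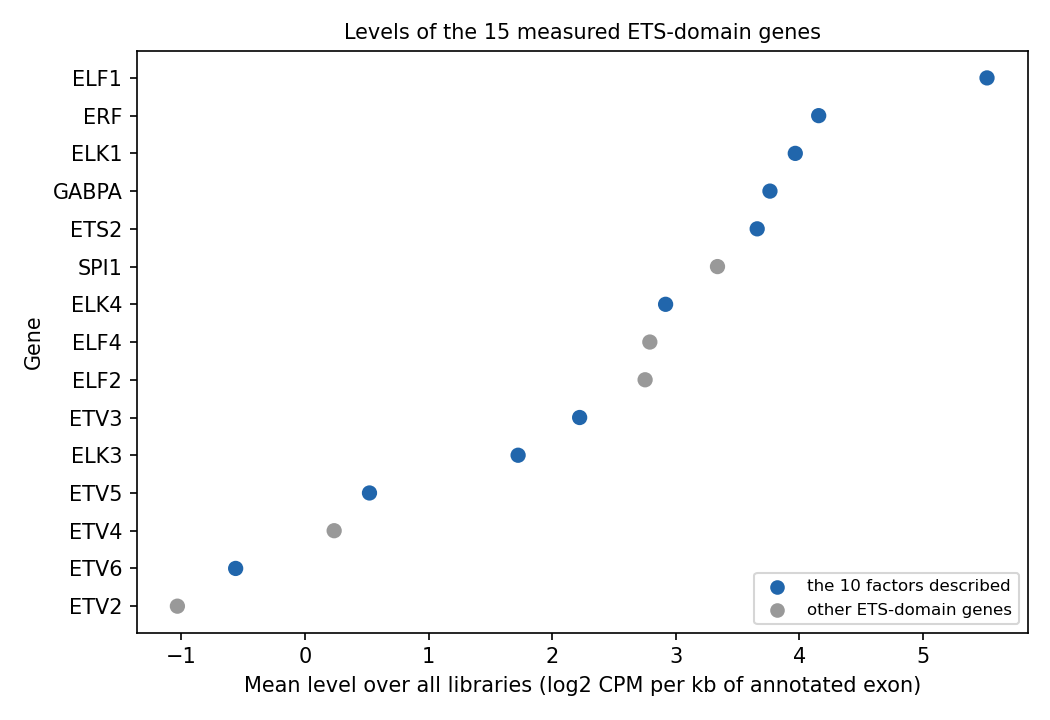
Mean level over all libraries (x axis, log2 CPM per kb of annotated exon) of the 15 measured ETS-domain genes (y axis), with the 10 factors described in blue and the other 5 in grey. ELF1 (5.52) and ERF (4.16) are at the top, and ETV6 (-0.56) is the lowest of the 10.

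ERF RNA (ENSG00000105722, chromosome 19) differed 1.85-fold between the groups, a log2 difference of 0.89 (SE 0.07, 95% interval 0.73 to 1.04) derived from the authors' deposited table (adjusted p = 6.44e-06, edgeR). The deposited value itself is -0.89. If the 3 knockout libraries are the higher group, the mean of 5.88 log2 CPM in the authors' deposited table implies about 71.9 CPM in them and 38.9 CPM in the wild type. If the 2 wild-type libraries are the higher group, it implies about 81.1 CPM in them and 43.8 CPM in the knockout. These levels assume that the deposited mean is the average over the 5 libraries. Under neither reading was ERF RNA lost from a group, so RNA abundance does not check the knockout label. Whether edited transcripts still encode the protein was not measured.

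Among all 11976 genes, ERF ranked 262 by p-value and 538 by size of the difference in the authors' deposited table. Of the 2220 genes within 0.5 log2 CPM of its mean, 1.62% had a larger absolute difference and 56.9% were called. ERF therefore had one of the larger differences among genes of like abundance, although it was not among the 392 genes called at a difference of at least 2-fold. HBG2, the γ-globin gene of the series title, lay on the same side as ERF with a log2 difference of 1.88 and a standard error of 0.22 derived from the authors' deposited table (adjusted p = 7.64e-05, edgeR). The title links loss of ERF to higher γ-globin. If γ-globin was higher in the knockout libraries here, then ERF RNA was also higher in them. If ERF RNA was lower in the knockout libraries, then so was HBG2. The sources used here do not settle which of these holds.

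Of the 10 factors, 5 were called, 4 on the side of ERF (ERF itself, ELK3, ELK1 and ETS2) and 1 on the opposite side (ETV3), against 50.9% of all genes called, so the share of called factors was close to that of all genes. Without ERF, 3 of 9 were called on its side and 1 on the opposite side. The median log2 difference was 0.13 over the 10 factors and 0.12 without ERF, against -0.00186 over all genes in the authors' deposited table. At an unadjusted p below 0.05 the same number, 5, passed. No factor differed 2-fold.

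**Figure D2:**
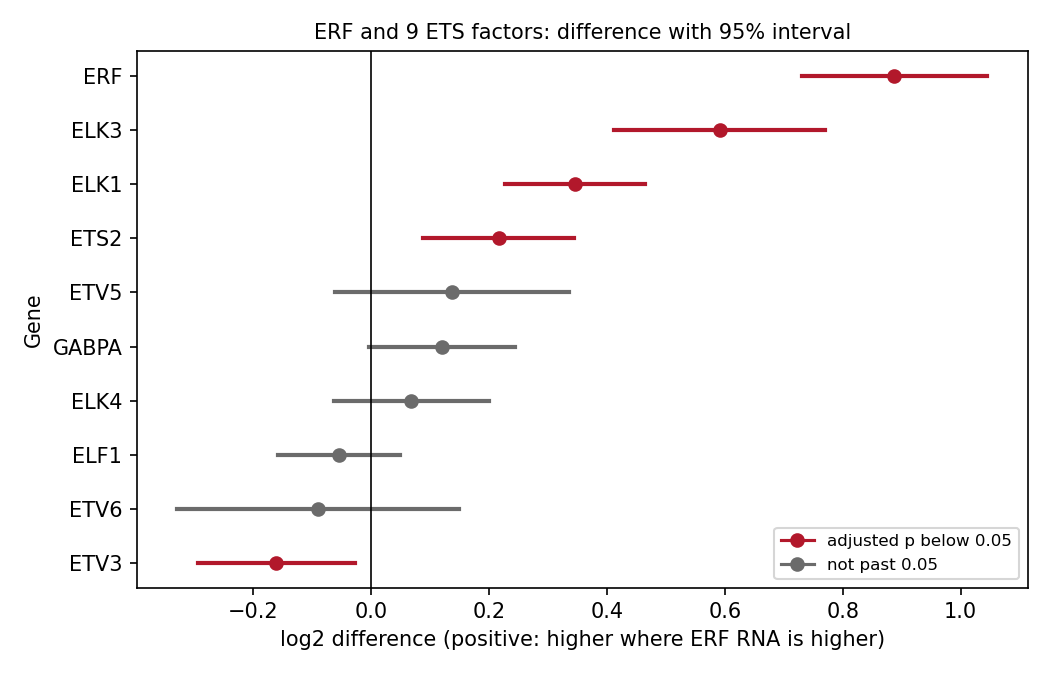
Log2 difference (x axis, positive where a gene lies on the side of ERF) of the 10 factors (y axis), with points for the difference and bars for the derived 95% interval, red where the adjusted p is below 0.05. ERF (0.89), ELK3 (0.59), ELK1 (0.35) and ETS2 (0.22) lie to the right of 0 and ETV3 (-0.16) to the left, while the intervals of the other 5 include 0.

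The related repressors ERF and ETV3 were called on opposite sides, and the repressor ETV6 was not called. ETV3 (ENSG00000117036, chromosome 1) is a repressor of the same subfamily as ERF, linked to growth arrest. It had a log2 difference of -0.16 (SE 0.06, 95% interval -0.29 to -0.03) derived from the authors' deposited table, opposite to ERF (adjusted p = 0.0462, edgeR). This difference is near the median for its abundance: of 2169 genes within 0.5 log2 CPM of ETV3, 54.9% had a larger absolute difference. ETV6 (ENSG00000139083, chromosome 12), also known as TEL, is a repressor needed in blood stem cells and megakaryocytes. Its log2 difference was -0.09 (95% interval -0.33 to 0.15) derived from the authors' deposited table (adjusted p = 0.514, edgeR). It had the lowest level per kb of the 10, and its interval is the widest of them.

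The ternary complex factors ELK1, ELK3 and ELK4 bind beside serum response factor (SRF) and turn ERK signals into transcription of immediate early genes; ELK3 represses until it is phosphorylated. Of the 3, 2 were called on the side of ERF. ELK3 (ENSG00000111145, chromosome 12) was 1.51-fold higher on that side, a log2 difference of 0.59 (SE 0.08, 95% interval 0.41 to 0.77) derived from the authors' deposited table (adjusted p = 0.000197, edgeR). After ERF it had the largest difference of the 10, and 7.64% of 1780 genes of like abundance exceeded it. ELK1 (ENSG00000126767, chromosome X) was 1.27-fold higher, at 0.35 (SE 0.05, 95% interval 0.23 to 0.46) derived from the authors' deposited table (adjusted p = 0.000438, edgeR). ELK4 (ENSG00000158711, chromosome 1) stood at 0.07 (95% interval -0.06 to 0.20) derived from the authors' deposited table (adjusted p = 0.359, edgeR). The intervals of ELK3 and ELK4 do not overlap, although a difference between genes was not tested.

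ETS2 and ETV5 are activators whose activity ERK raises. ETS2 (ENSG00000157557, chromosome 21) was 1.16-fold higher on the side of ERF, at 0.22 (SE 0.06, 95% interval 0.09 to 0.34) derived from the authors' deposited table (adjusted p = 0.01003, edgeR). ETV5 (ENSG00000244405, chromosome 3), of the PEA3 subfamily, stood at 0.14 (95% interval -0.06 to 0.34) derived from the authors' deposited table (adjusted p = 0.222, edgeR). A difference of up to 0.34 in ETV5 is thus within what these libraries allow.

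The abundant activators GABPA and ELF1 were not called. GABPA (ENSG00000154727, chromosome 21) binds promoters of housekeeping and mitochondrial genes together with a GABPB subunit. It stood at 0.12 with a 95% interval that just includes 0, from -0.00306 to 0.24, derived from the authors' deposited table (adjusted p = 0.0947, edgeR). ELF1 (ENSG00000120690, chromosome 13) had the smallest difference of the 10, -0.05 (95% interval -0.16 to 0.05) derived from the authors' deposited table (adjusted p = 0.360, edgeR). The interval of the factor with the highest level thus includes 0 and ends at 0.05 on the side of ERF.

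**Figure D3:**
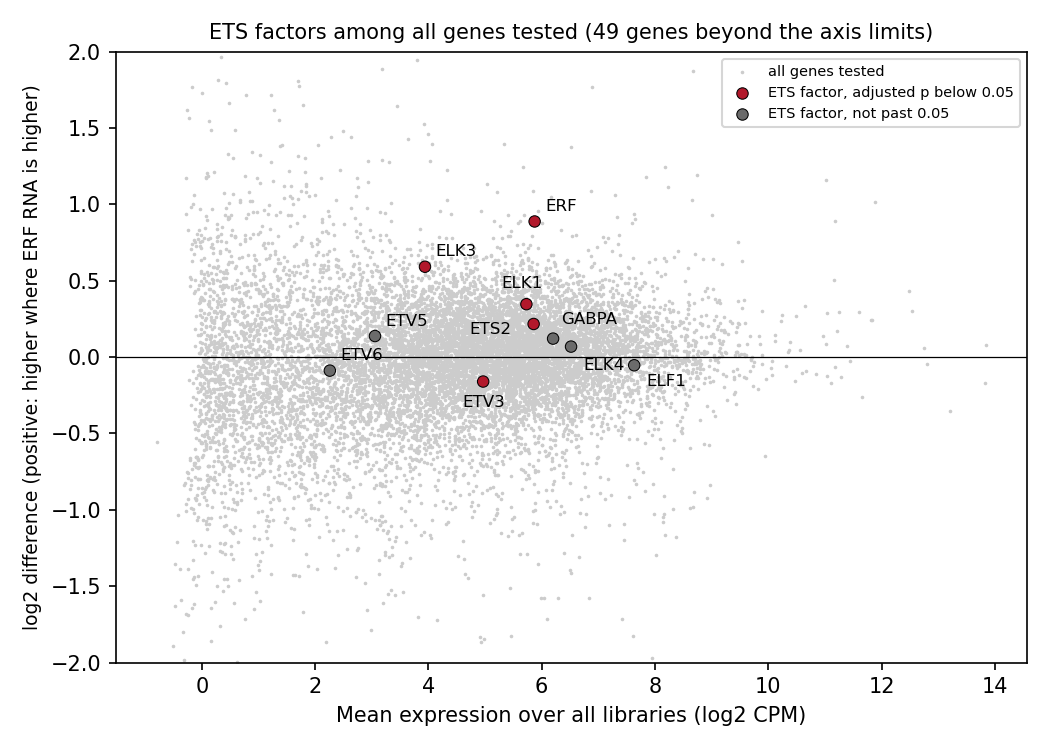
Log2 difference (y axis, positive on the side of ERF) against mean expression over all libraries (x axis, log2 CPM) for all 11976 genes tested (light grey) and the 10 factors (red where called, dark grey otherwise), with 49 genes beyond the limits of -2 and 2. ERF sits above the bulk of genes of like abundance and ELK3 near its upper edge, whereas the other 8 lie inside it.

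Beyond these 10, 5 of the remaining 18 human ETS-domain genes were measured and 1 (20%) was called, against 50.9% of all genes. ETV4 (ENSG00000175832, chromosome 17), the PEA3 relative of ETV5, was 1.47-fold higher on the side of ERF, at 0.56 (SE 0.15, 95% interval 0.22 to 0.89) derived from the authors' deposited table (adjusted p = 0.0107, edgeR). ETV4 was scarce, with a deposited mean of 2.09 log2 CPM in the table of the authors. SPI1, which encodes the myeloid factor PU.1, stood at -0.11, ELF2 at -0.04, ELF4 at -0.01 and ETV2 at 0.26 derived from the authors' deposited table, none past the threshold. The median of the 5 was -0.01, against 0.13 for the 10. ETS1, FLI1, ERG and the other 10 genes of the family were not analysed here. Over the 14 measured besides ERF, whose side is fixed by the convention, 4 (28.6%) were called on its side and 1 (7.14%) on the opposite side, against 24.9% and 25.9% of all genes.

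Partners and regulators of the factors were taken from a list, and 24 measured genes of it are described. Of these, 13 (54.2%) were called, close to the background of 50.9%, but 10 (41.7%) lay on the side of ERF, where the background was 24.9%, and 3 (12.5%) on the opposite side, where it was 25.9%. The median log2 difference of the 24 was 0.12. With differences centred on genes of at least 5 log2 CPM the split was 9 and 4, and with a minimum absolute log2 difference of 0.5 it was 2 and 2. With Holm's adjustment 0 were called on the side of ERF and 1, RUNX1, on the opposite side. No list test was made.

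SRF, the partner of the ELK factors, was 1.55-fold higher on the side of ERF, at 0.63 (SE 0.08, 95% interval 0.45 to 0.81) derived from the authors' deposited table (adjusted p = 0.000129, edgeR). SRF, ELK3 and ELK1 thus lay on the same side. The actin-regulated SRF cofactors MKL1 (0.15) and MKL2 (0.19), which compete with the ELK factors for SRF, were not called in the authors' deposited table. GABPB1, the subunit that gives GABPA its activation domain, was called at 0.36 (SE 0.06) derived from the authors' deposited table (adjusted p = 0.000643, edgeR). The related GABPB2 stood at -0.08 and was not called in the authors' deposited table.

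Among the genes that move ERF out of the nucleus, XPO1, the export receptor, was called at 0.21 (SE 0.05) derived from the authors' deposited table (adjusted p = 0.00316, edgeR). The ERK kinase MAPK3 (0.01) and the MEK kinases MAP2K1 (0.09) and MAP2K2 (-0.12) were not called in the authors' deposited table. RNA says nothing of their activity, which was not measured.

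Corepressors moved both ways. L3MBTL1, a chromatin compactor that binds ETV6, was 1.76-fold lower on the side of ERF, at -0.82 (SE 0.14) derived from the authors' deposited table (adjusted p = 0.000695, edgeR), and was scarce at 2.33 log2 CPM. The deacetylase HDAC3 (0.24) and the scaffold SIN3B (0.14) were called on the side of ERF, whereas SIN3A (-0.12) and NCOR1 (0.03) were not called in the authors' deposited table. DDX20, a helicase through which ETV3 represses, was called at 0.22 in the authors' deposited table, on the side opposite to ETV3. The acetyltransferases EP300 (0.24) and CREBBP (0.22), coactivators of ETS factors, were both called on the side of ERF in the authors' deposited table.

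RUNX1, which binds DNA together with ETS factors in blood cells, was called on the opposite side. It was 1.45-fold lower on the side of ERF, at -0.54 (SE 0.05, 95% interval -0.65 to -0.42) derived from the authors' deposited table (adjusted p = 2.75e-05, edgeR). CBFB, the partner of RUNX1, stood at 0.10 and was not called in the authors' deposited table. Of 2 genes that target ETV5 and ETS2 for degradation, DET1 was called at -0.33 and RFWD2 (COP1), at 0.01, was not in the authors' deposited table. The repressor of PEA3 genes, CIC, stood at 0.09 and was not called, while its partners ATXN1L (0.26) and ATXN1 (1.18) were called in the authors' deposited table. ATXN1 had only 0.08 log2 CPM, and its 95% interval runs from 0.68 to 1.67.

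**Figure D4:**
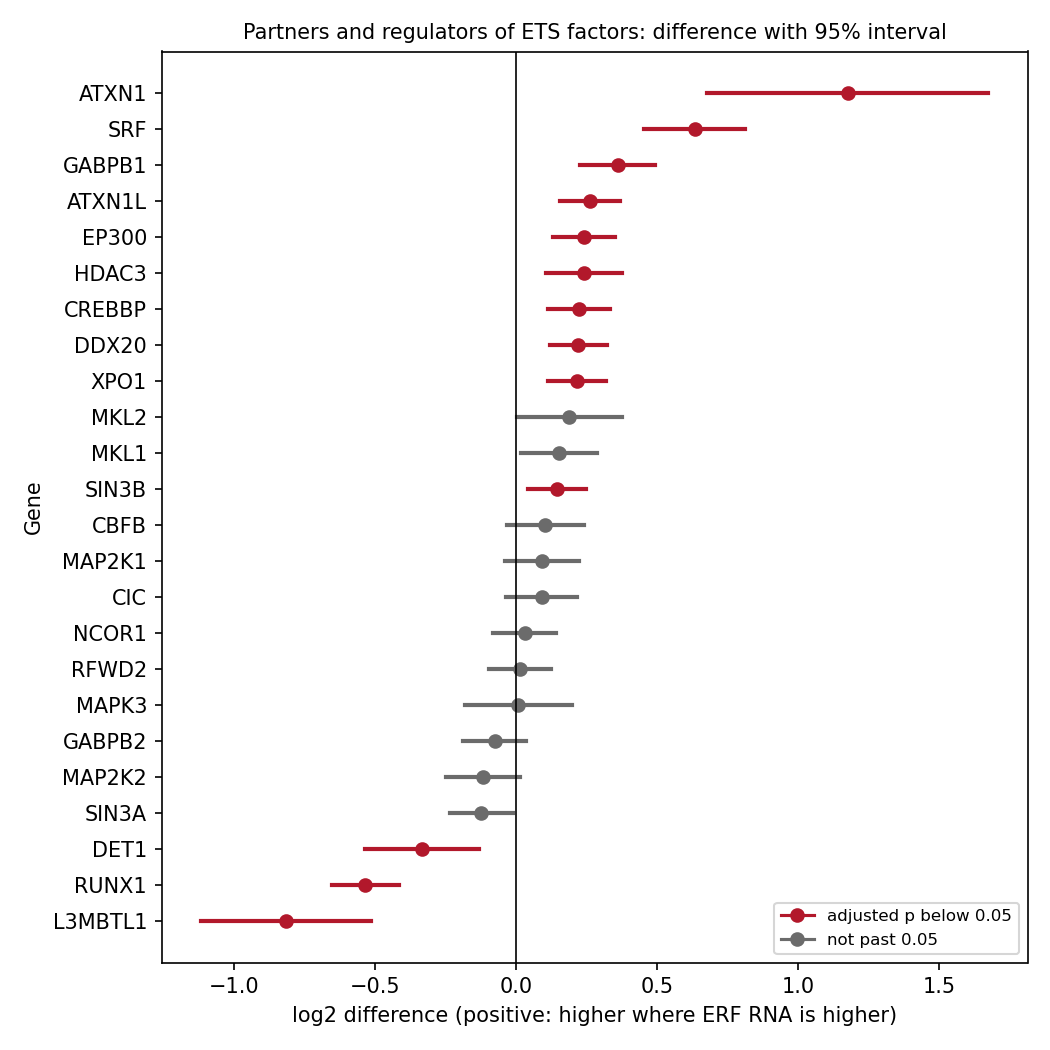
Log2 difference (x axis, positive on the side of ERF) of the 24 partners and regulators (y axis), with the derived 95% interval as bars, red where the adjusted p is below 0.05. The 10 genes called on the right include ATXN1 (1.18), SRF (0.63) and GABPB1 (0.36), and the 3 on the left are DET1 (-0.33), RUNX1 (-0.54) and L3MBTL1 (-0.82).

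Genes next to the factors on the chromosome were read to see whether whole loci differed. ERF lies between GSK3A and CIC. GSK3A, a kinase of glycogen and Wnt signalling, was called on the side of ERF at 0.38 (SE 0.05, 95% interval 0.26 to 0.50) derived from the authors' deposited table (adjusted p = 0.000265, edgeR). CIC on the other flank, at 0.09 with a 95% interval of -0.04 to 0.22, was not called in the authors' deposited table. The difference of ERF exceeded that of both neighbours, and its interval overlaps neither.

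Over the nearest measured gene on each side of all 10 factors, 9 of 20 (45%) were called, against 50.9% of all genes, 5 on the side of ERF and 4 on the opposite side. Their median log2 difference was 0.00143. CDK17 (-0.23) and LTA4H (-0.13), which flank ELK3, were called on the side opposite to it in the authors' deposited table. SYN1 (0.39), which encodes a synaptic vesicle protein, and UXT (-0.01), a prefoldin-like chaperone, flank ELK1 and were not called in the authors' deposited table. ATP5J, which shares annotated exon sequence with GABPA on the reverse strand, was called at 0.35 (SE 0.08) derived from the authors' deposited table (adjusted p = 0.00328, edgeR). MFSD4, which overlaps ELK4 on the reverse strand, was called at -0.56, whereas ELK4 itself, at 0.07, was not called in the authors' deposited table. ARHGEF11 beside ETV3 was called at 1.22, opposite to ETV3, in the authors' deposited table. The other called neighbours were SLC45A3 (0.43) beside ELK4, TRA2B (0.34) beside ETV5 and LRP6 (-0.15) beside ETV6, from the authors' deposited table. Whether the authors counted by strand is unknown here, so reads from GABPA and ATP5J, from ELK4 and MFSD4, and from ELF1 and WBP4 cannot be told apart where the genes overlap. ERF and ETV5 share a little annotated exon sequence with AC006486.1 and DGKG on their own strand (the table's row named AC006486.1 has another identifier than this gene), and ELK3 with the antisense AC008149.1.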

How the data were processed

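RNA of HUDEP-2 cells was sequenced from 3 ERF knockout and 2 wild-type samples, with Trizol extraction and an Illumina TruSeq RNA kit per the labels' protocols. The tools of the authors, per the submitters' processing notes, include edgeR 2.6.12, HTSeq, Cuffdiff, TopHat2 2.0.4 and SAMtools, on build hg19/GRCh37, with no roles. How counts were filtered, normalized and assigned to strands is unknown here. The deposited table holds, per the file headers, log2 fold changes and mean log2 CPM, an F score, and p-values with adjusted p-values. Of its 11979 rows, 3 name no gene, hold 21.5% of the CPM and were left out of counts here. Recomputed adjusted p-values differed from those deposited by at most 0.676%.

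The sign was set to the side of ERF. The standard error is the absolute log2 fold change over the square root of F, an approximation since the fold changes made by the authors with edgeR may be shrunk. No model was fitted again, and the calculations were tested on simulated data (Python 3.11.15, scipy 1.17.1). The simulation made F from the standard error, so it checked the arithmetic and could not show whether the deposited fold changes are shrunk. RefSeq (GRCh38.p14) served for names, neighbours and promoters, with 11481 genes matched by symbol. GENCODE 29 gave exon lengths and the overlaps between genes. The 10 factors and all gene lists were chosen with earlier results of these data known. Named genes were all 10 factors, HBG2, the called genes of the ETS, partner and neighbour lists, and further genes whose role is given. Depth per sample is unknown. Alternative thresholds, adjustments, expression minimums and centrings were tried. One gene of the list of partners is not reported here.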

Additional observations from a re-analysis of the deposited data

How the results depend on the processing

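The call of ERF held under all 9 alternatives, its side being set by convention, with a log2 difference from 0.853 (centred on genes of at least 5 log2 CPM, a shift of 0.0342) to 0.889. No difference of the 10 factors changed sign. Of the 10 factors, 5 were called. With adjusted p below 0.01 this count was 3 (30%, against 35.9% of all genes). Over genes of at least 5 log2 CPM it was 3 of 6 tested (50%, against 57.2%). With a minimum absolute log2 difference of 0.5 it was 2 (20%, against 15.3%). With Holm's adjustment it was 1, ERF (10%, against 6.58%). ETV3 (-0.16) and ETS2 (0.22) lost their calls at 0.01, at the 0.5 minimum and with Holm's adjustment, ELK1 (0.35) at the 0.5 minimum and with Holm's, and ELK3 (0.59) with Holm's. GABPA (0.12) gained a call at an adjusted p below 0.10. These changes follow from the stricter or wider rule, since the deposited values stay the same. ETV3, ETV5, ETV6 and ELK3 lie under 5 log2 CPM and were not tested at that minimum. The count for the other ETS genes, 1 of 5, was 0 at 0.01 and with Holm's, and 0 of 1 tested over genes of at least 5 log2 CPM. Of the 24 partners, 13 were called. Their count was 8 of 15 tested (53.3%) over genes of at least 5 log2 CPM, 4 (16.7%) at the 0.5 minimum and 1 (4.17%) with Holm's. Of the 20 neighbours, 9 were called, and 4 (20%) at 0.01. Under those 3 settings the neighbour count was 5 of 11 tested (45.5%), 2 (10%) and 1 (5%). The shares of all genes at these settings are those given above for the 10 factors. No paired analysis was possible because the deposited table has no values per library; for the same reason no library could be left out and no other count model was run. Alternatives for the promoter comparison were not run, as too few genes had a window.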
